A study of Mus musculus with 8 samples.

Results

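The comparison described here is between sorted CD34-negative hair follicle cells of mice with a Runx1 transgene (labelled Runx1 iTG) and the same fraction of wild-type (WT) mice. The labels call these cells hair germ. Its members are 4 of the 8 arrays of the series, 2 per genotype, taken by their titles, and it was described across all 18193 genes measured. The other 4 arrays hold the CD34-positive bulge fraction of the same genotypes, also 2 arrays each. All follicles were in telogen, when hair growth rests. Mice were 20 days old, and 21 days old for replicate 2 of both Runx1 iTG groups. Per the labels, the transgenic mice were a Tet-on Runx1 line, and mice of both genotypes received doxycycline for 1 day in food that held 1 g per kg. The labels give repression of H2BGFP as the purpose of the doxycycline. Which promoter drives the transgene, in which cells it is active and whether the mice also carried H2BGFP are points not given in the sources used here. The cells were sorted as K15-GFP-positive, alpha6-integrin-positive and CD34-negative. The samples are labelled biological replicates, and their number of 2 per group limits the precision of every value.

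RUNX1 is a transcription factor that binds DNA with its partner CBFB and can activate or repress its targets, in the second case often through corepressors of the Groucho/TLE family. In skin it is known for its part in the activation of hair follicle stem cells at the start of a new hair cycle. The hair germ is the small cluster of cells between the bulge and the dermal papilla that divides first when the resting follicle is activated, while the bulge above it holds the longer-lived stem cells.

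The core of the RUNX binding motif reads TGTGGT or TGCGGT. It was searched on both strands of the RefSeq promoter windows (GRCm38.p6, from 250 bases before to 50 bases after a start site) of the genes that passed the test in this comparison. Windows were held for 4 of the 5 genes, 8 windows in all, and 2 of them held a match, beside 22.4% of all 32851 windows. The windows are shown for Runx1 itself and Tsc22d3, which hold the matches, and for Cxcl14, the gene that fell with the smallest p-value, which holds none. Capitals mark the matches, read 5′ to 3′ on the strand of the gene.
Runx1 (chr16:92826025-92826324, minus strand): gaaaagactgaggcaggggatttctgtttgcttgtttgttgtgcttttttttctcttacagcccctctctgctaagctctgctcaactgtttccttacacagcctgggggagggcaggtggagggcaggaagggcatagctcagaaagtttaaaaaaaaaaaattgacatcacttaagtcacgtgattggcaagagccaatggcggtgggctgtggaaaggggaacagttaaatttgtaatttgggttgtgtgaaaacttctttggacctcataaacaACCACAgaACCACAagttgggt
Tsc22d3 (chrX:140542619-140542918, minus strand): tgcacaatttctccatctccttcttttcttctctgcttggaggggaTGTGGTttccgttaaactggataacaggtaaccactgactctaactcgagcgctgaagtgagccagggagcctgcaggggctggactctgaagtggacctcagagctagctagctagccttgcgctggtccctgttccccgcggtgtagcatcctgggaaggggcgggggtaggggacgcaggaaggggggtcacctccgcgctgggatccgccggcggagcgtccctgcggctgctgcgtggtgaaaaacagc
Cxcl14 (chr13:56296502-56296801, minus strand): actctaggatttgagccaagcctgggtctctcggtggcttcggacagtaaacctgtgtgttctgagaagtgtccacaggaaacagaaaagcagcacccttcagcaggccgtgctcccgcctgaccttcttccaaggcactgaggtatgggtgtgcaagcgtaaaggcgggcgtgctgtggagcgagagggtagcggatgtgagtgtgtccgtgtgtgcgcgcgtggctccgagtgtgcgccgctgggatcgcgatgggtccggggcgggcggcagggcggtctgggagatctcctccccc
In the Runx1 window the reverse complement of TGTGGT stands at bases 29 and 37 after the start site, and in the Tsc22d3 window TGTGGT stands 204 bases before it (position -204). A match is a string of letters and not a measured binding site. Among genes with a window, 26.3% of 501 genes higher in Runx1 iTG cells at an unadjusted p under 0.05, and 20.4% of 466 lower ones, had a match, beside 24.3% of all 14452 genes tested with a window.

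Signals below are deposited array intensities after scaling to a common 75th percentile, given for replicate 1 and then replicate 2. Differences are Runx1 iTG minus WT on the log2 scale with their standard error (SE) from limma, n = 2 per group, and adjusted p-values are limma's after Benjamini-Hochberg adjustment over all 18193 genes. A gene was called at an adjusted p under 0.05. A signal under 31.1, the 95th percentile of bacterial control probe sets, was taken as below background.

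The markers went along with the sort gates but not with the name hair germ. Cd34, the gene of the surface protein used to exclude bulge cells, read 3.77 and 53.2 on the WT arrays and 2.42 and 5.24 on the Runx1 iTG arrays, beside 4903 to 11208 on the 4 bulge arrays. Krt15, the keratin whose promoter gives the K15-GFP label, read 21875 and 18848 on the WT arrays and 11764 and 16016 on the Runx1 iTG arrays. Of 20 genes listed as hair germ and early progenitor genes, 2 were called higher and 8 lower in WT CD34-negative than in WT bulge cells (3.14% and 3.79% of all genes). The lower ones include Lgr5, a stem cell receptor of the lower follicle, at 521 and 229 against 9956 and 8474 in WT bulge (-4.73 ± 0.36, adjusted p = 0.000132). Cdh3, or P-cadherin, a defining surface protein of the hair germ, read 1062 and 567 against 1619 and 1403 (-0.96 ± 0.37, adjusted p = 0.169). Of 21 measured genes listed for the upper follicle and sebaceous gland, 15 were called higher in WT CD34-negative cells and 0 lower, with a median difference of 2.79. Examples, chosen after their values were seen, are Krt79, a keratin of the sebaceous duct region, at 10658 and 9340 against 891 and 1306, and Pparg, the transcription factor of sebocytes and fat cells, at 1070 and 2070 against 9.48 and 3.08. The cells are therefore called CD34-negative cells here.

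Sex-linked signals differed between the replicate numbers and not between the genotypes. On the 4 replicate 1 arrays of the series Xist read 30.2 to 72.5 and the Y-linked Eif2s3y 1853 to 2425, and on the 4 replicate 2 arrays Xist read 9973 to 11103 and Eif2s3y 2.42 to 22.2. The spread between replicates of a group therefore includes sex and, for Runx1 iTG, the day. No WT array is from day 21, so the day also enters the difference between the genotypes in part. Rank correlations between the 4 CD34-negative arrays ran from 0.944 to 0.959, and the lowest was between the 2 replicate 1 arrays of different genotype. The 2 WT arrays correlated at 0.956, less than WT replicate 2 with Runx1 iTG replicate 2 at 0.959. Between 68.95% and 73.73% of probe sets lay above background on these arrays.

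In CD34-negative cells Runx1, Tsc22d3 and Cpe rose, and Cxcl14 and Tle4 fell. These were the 5 genes called of 18193 (0.0275%), 3 higher (0.0165%) and 2 lower (0.011%). Runx1 read 495 and 489 on the WT arrays and 12107 and 12882 on the Runx1 iTG arrays. Both Runx1 iTG values lay far above both WT values, and the difference was 4.67 ± 0.25, 25.4-fold (adjusted p = 8.46e-05).

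The 6 probe sets of Runx1 did not move one way. That value comes from the brightest of them (1452530_a_at). A further one (1427650_a_at) read 451 and 372 on the WT arrays and 1787 and 2453 on the Runx1 iTG arrays (2.35 ± 0.25, adjusted p = 0.042 with every probe set fitted on its own, a fit that called 4 of 45037 probe sets, 0.00888%). The other 4 were lower on both Runx1 iTG arrays. One of them (1422864_at) read 1758 and 1378 in WT and 242 and 626 in Runx1 iTG cells (-2.00 ± 0.40), another (1422865_at) 1292 and 1405 in WT and 69.7 and 556 in Runx1 iTG cells (-2.77 ± 0.72). The differences of the last pair were -1.43 and -2.56, and adjusted p-values of the 4 ran from 0.298 to 0.71. The part of the transcript, or of the transgene, that each probe set reads was not analysed here. In WT CD34-negative cells 1422864_at and 1422865_at were brighter than the probe set chosen. The size and direction of the Runx1 difference therefore rest on that choice. With the mean of all 6 probe sets in place of the brightest, the Runx1 difference was -0.29 (adjusted p = 0.944).

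Tsc22d3 encodes GILZ, a leucine zipper protein known as a target of the glucocorticoid receptor. It read 880 and 1099 on the WT arrays and 4445 and 6555 on the Runx1 iTG arrays, with no overlap (2.46 ± 0.29, 5.49-fold, adjusted p = 0.0395). Its other 3 probe sets gave 2.12, 0.73 and -0.09, none of which passed. Cpe encodes carboxypeptidase E, an enzyme that trims peptide hormone precursors. Its signal was 324 and 202 in WT and 1444 and 2090 in Runx1 iTG cells, again without overlap (2.76 ± 0.34, 6.79-fold, adjusted p = 0.0414).

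Cxcl14 encodes a chemokine made by many epithelia. Its signal was 3347 and 3405 in WT cells and 420.0 and 599 in Runx1 iTG cells, so that the WT arrays lay close together and the Runx1 iTG arrays well below (-2.75 ± 0.22, 6.73-fold lower, adjusted p = 0.00229). The second probe set of the gene read 2729 and 1842 in WT and 402 and 342 in Runx1 iTG cells (-2.60, adjusted p = 0.0181 over all probe sets). Tle4 encodes a Groucho-family corepressor that RUNX proteins recruit. It read 1100 and 1187 in WT and 229 and 283 in Runx1 iTG cells (-2.17 ± 0.25, 4.49-fold lower, adjusted p = 0.0395), and its other 2 probe sets gave -1.78 and -2.21 without passing. Both genes were thus lower on each Runx1 iTG array than on either WT array.

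**Figure D1:**
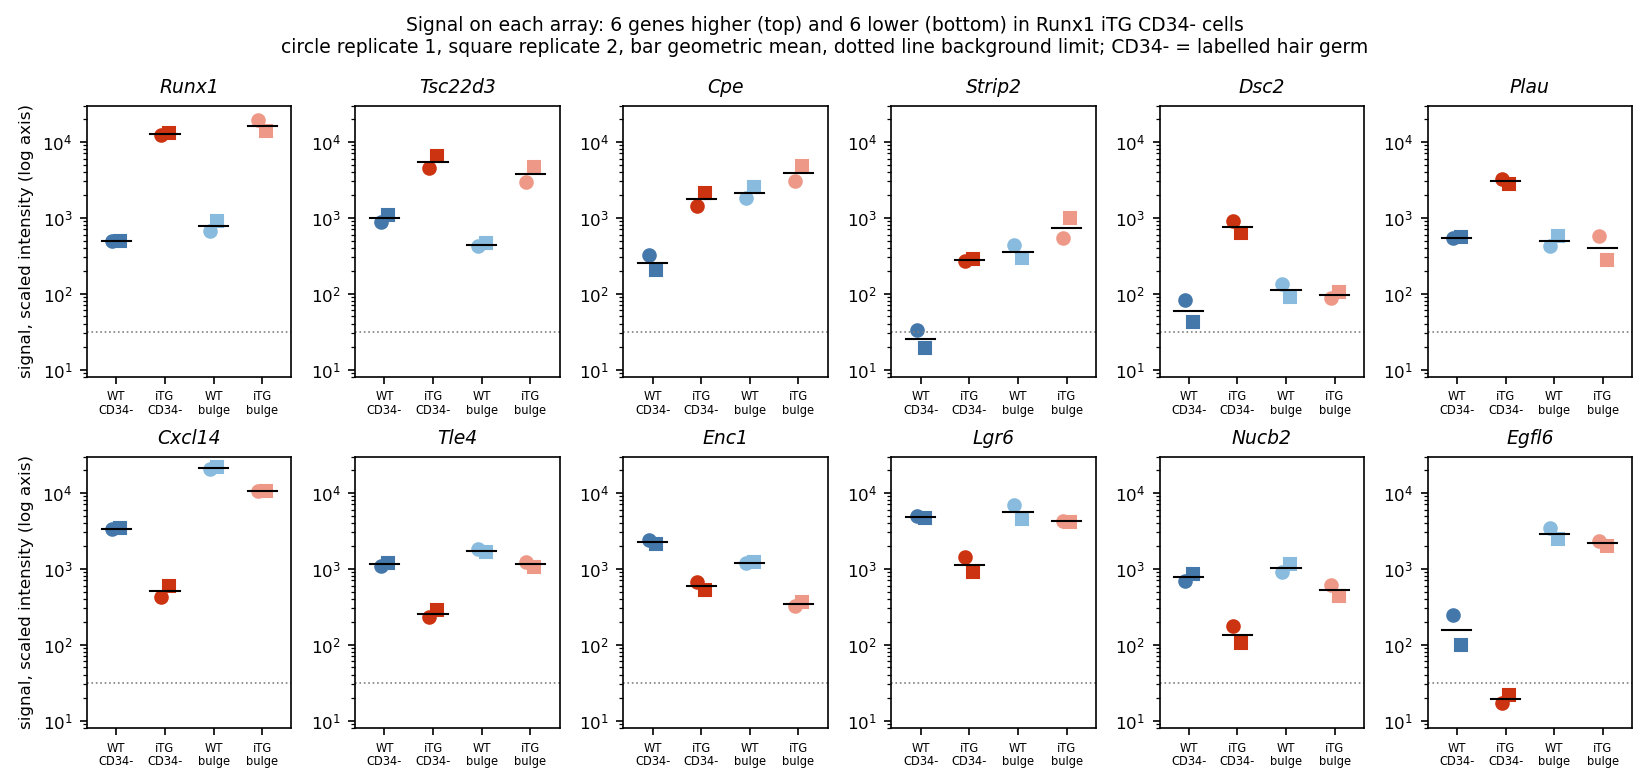
Signal of 12 genes on each of the 8 arrays (log axis, scaled intensity), by genotype and cell fraction; circles are replicate 1, squares replicate 2, bars the geometric mean and the dotted line the background limit of 31.1. In the CD34-negative columns Runx1 goes from about the WT values of 495 and 489 to 12107 and 12882, while Cxcl14 goes from 3347 and 3405 to 420.0 and 599.

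Calls were few at this number of arrays, and the 5 genes did not hold equally. When each of the 8 arrays was left out in turn, Runx1 passed in 8 of 8 fits, Cxcl14 in 7 of 8 and Tle4, Tsc22d3 and Cpe in 0 of 8. Cxcl14 did not pass without WT replicate 1 of the CD34-negative cells.

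At an unadjusted p under 0.05 there were 1233 genes (6.78%), 645 higher (3.55%) and 588 lower (3.23%), beside 909.7 expected if no gene differed. Groups did not overlap for 3629 genes with both Runx1 iTG arrays higher (19.9%) and for 2871 with both lower (15.8%). Groups of so few arrays lie apart by chance alone for many genes. A gene without overlap, here and below, is therefore not by that alone shown to differ. The median difference over all genes was 0.03.

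**Figure D2:**
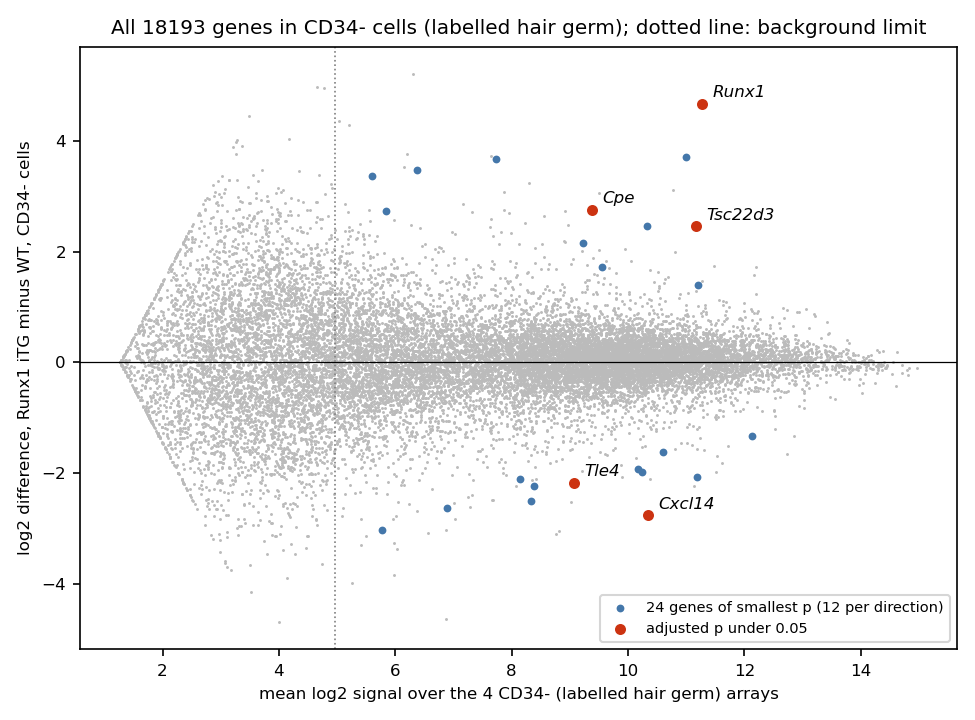
Log2 difference, Runx1 iTG minus WT, against mean log2 signal over the 4 CD34-negative arrays, 1 point per gene for 18193 genes; red points passed at an adjusted p under 0.05, blue points are the remaining genes of smallest p, and the dotted line is the background limit. The 5 red points are labelled, with Runx1 highest among them at 4.67 and Cxcl14 lowest at -2.75, and the scatter is wide below the background limit.

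Among the 12 genes of smallest p in the higher direction, 9 did not pass the test, with adjusted p-values of 0.0712 to 0.124. Dsc2 encodes desmocollin-2, a desmosomal cadherin. It read 83.6 and 41.8 in WT and 917 and 628 in Runx1 iTG cells (3.68 ± 0.53, adjusted p = 0.0751). Plau encodes urokinase, a secreted protease that activates plasminogen. Its signal was 543 and 552 in WT and 3255 and 2771 in Runx1 iTG cells (2.46 ± 0.36, adjusted p = 0.0768). Both genes had a second probe set on the same side, at 4.16 for Dsc2 and 2.44 for Plau. Cyp2f2, a cytochrome P450 known from airway club cells, read 355 and 895 in WT and 6979 and 7786 in Runx1 iTG cells (3.71 ± 0.60, adjusted p = 0.124), so that its WT arrays differed more from each other than its Runx1 iTG arrays. Strip2, a gene of the striatin-interacting family, went from 32.8 and 19.1 to 271 and 283 (3.47 ± 0.48, adjusted p = 0.0712). Abi1, an adaptor of the actin-regulating WAVE complex, went from 1506 and 1408 to 3843 and 3851 (1.40 ± 0.24, adjusted p = 0.124). Its dimmer probe sets gave 1.16, 0.46 and 0.40. Klhl2 and Atp10d were brighter by 1.72 and 2.16, with 0.87 from a dimmer probe set of Klhl2. Tbc1d30 and Fads3 lay below background on both WT arrays, and were at least 4.75-fold and at least 5-fold higher in Runx1 iTG cells by the brighter mean over the background limit. A dimmer probe set gave -1.21 for Tbc1d30, and 2 dimmer ones gave 1.69 and -0.15 for Fads3.

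In the lower direction 10 of the 12 did not pass, with adjusted p-values of 0.0621 to 0.124. Enc1, an actin-binding protein gene, read 2365 and 2119 in WT and 668 and 524 in Runx1 iTG cells (-1.92 ± 0.25, adjusted p = 0.0621), and its other 2 probe sets were also lower, by 1.56 and 1.22 (log2). Lgr6, an R-spondin receptor that marks stem cells of the upper follicle, read 4906 and 4632 in WT and 1445 and 891 in Runx1 iTG cells (-2.07 ± 0.29, adjusted p = 0.0712), with -2.29 from its second probe set. Nucb2, the gene of the nesfatin precursor, read 688 and 864 in WT and 175 and 105 in Runx1 iTG cells (-2.51 ± 0.36). In each of these genes the Runx1 iTG arrays lay below both WT arrays by at least the spread within WT.

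The remaining 7 of the 10 were as follows. Egfl6, a basement membrane protein of the bulge, read 243 and 99.7 in WT, while both Runx1 iTG arrays were below background at 16.9 and 21.8, which makes it at least 5-fold lower (adjusted p = 0.0768). Ltbp1, which binds latent TGF-beta, read 817 and 646 in WT and 125 and 191 in Runx1 iTG cells (-2.23 ± 0.38), and its other 2 probe sets gave -1.59 and -0.28. Vwa1, a matrix protein gene, read 686 and 504 in WT and 167 and 112 in Runx1 iTG cells (-2.10 ± 0.36). Maf, a bZIP transcription factor with 6 probe sets, read 3390 and 1679 in WT and 523 and 705 in Runx1 iTG cells (-1.97 ± 0.31), and all of its probe sets gave a difference below 0. H60c, a ligand of the immune receptor NKG2D, went from 287 and 297 to 32.9 and 68.9 (-2.62 ± 0.43). Susd2 and Efhd2 gave -1.61 and -1.32. Adjusted p-values of these, apart from Egfl6, were 0.124.

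The same 24 genes were read on the bulge arrays. These are no part of the difference itself, but they enter the common estimate of the spread from which the p-values that chose the genes come, so the bulge values are a description. Of the 12 higher genes, 9 were higher on both Runx1 iTG bulge arrays and 0 lower on both, beside 17.3% and 16.4% of all genes. Of the 12 lower genes, 11 were lower on both and 1, Maf, was higher on both. The labels do not say whether samples of both fractions with one number came from one mouse. Tsc22d3 read 424 and 460 in WT bulge and 2983 and 4712 in Runx1 iTG bulge (3.09, adjusted p = 0.0102), and Runx1 itself differed there by 4.40 (adjusted p = 0.000147). Enc1 was lower there by a like amount, -1.79 (adjusted p = 0.0821).

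Cxcl14, Tle4, Lgr6 and Egfl6 had smaller differences in bulge. Cxcl14 was brighter in bulge, at 20283 and 21931 in WT and 10485 and 10629 in Runx1 iTG cells (-1.00, adjusted p = 0.506). The test of the difference between the 2 fractions, an interaction term in the limma fit, gave -1.75 ± 0.31 for Cxcl14, with an unadjusted p of 0.00025 and an adjusted p of 0.91. Tle4 in bulge read 1808 and 1663 in WT and 1221 and 1068 in Runx1 iTG cells (-0.60), with an interaction of -1.56 ± 0.35 (adjusted p = 0.91). No gene passed the interaction test: limma called 0 of 18193 (0%), with 839 at an unadjusted p under 0.05 (4.61%). Nothing here is therefore shown to be particular to either fraction.

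**Figure D3:**
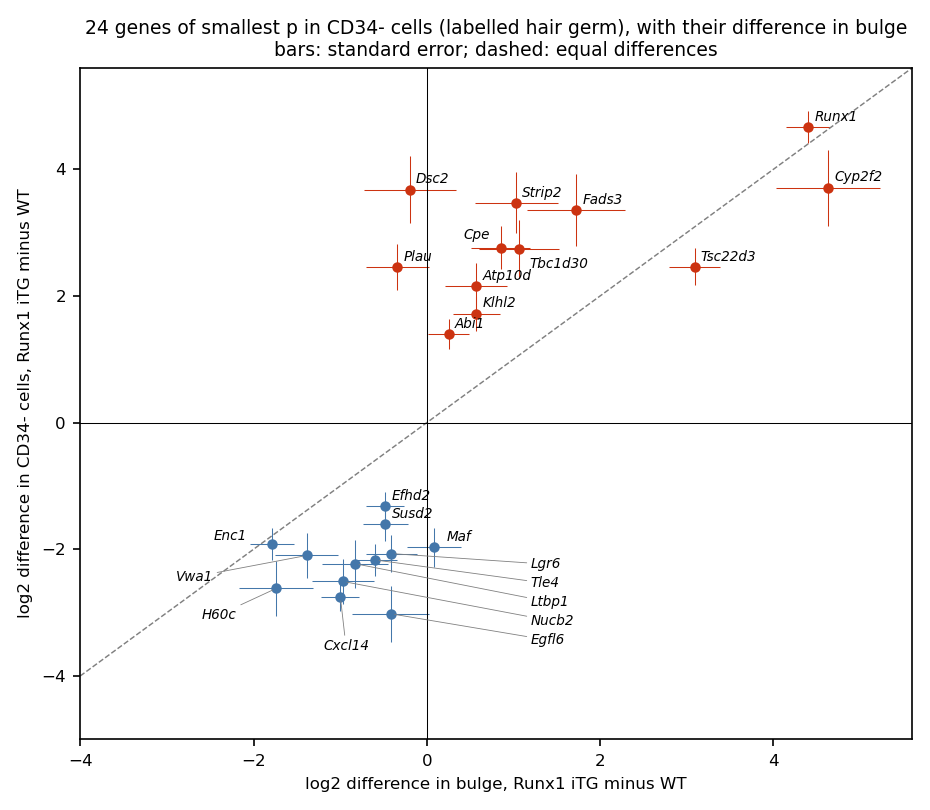
Log2 difference, Runx1 iTG minus WT, in CD34-negative cells (vertical axis) against that in bulge (horizontal axis) for the 24 genes of smallest p in CD34-negative cells; bars are standard errors and the dashed line marks equal differences. Runx1, Tsc22d3 and Enc1 lie near the line, Cyp2f2 has no exact place on the bulge axis because both WT bulge arrays were below background, Dsc2 and Plau lie at -0.20 and -0.34 on the bulge axis, and Cxcl14 lies at -1.00.

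Interaction genes were taken only from those without overlap in CD34-negative cells whose brighter mean there reached the median signal. Of these, Rassf6, Dsc2, Nrp1 and Plau had the smallest interaction p with the CD34-negative difference above that in bulge. With it below, the genes were Cxcl14, Avpr1a, Dusp26 and Alox12b. All of them had an adjusted p of 0.91. Rassf6, Dusp26 and Alox12b each had a group with both arrays below background, so their fitted differences are not exact. Avpr1a, a vasopressin receptor gene, read 10983 and 12298 in WT and 12381 and 12785 in Runx1 iTG CD34-negative cells (0.11 ± 0.25). In bulge it read 78.7 and 115.7 in WT and 390 and 402 in Runx1 iTG cells (2.05, adjusted p = 0.0418), far below its level in the CD34-negative fraction. Plau in bulge read 429 and 580 in WT and 570 and 273 in Runx1 iTG cells, so that its groups overlapped there.

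The following gene groups were read by the number of members whose 2 groups did not overlap and by their median difference, beside 19.9% higher, 15.8% lower and a median of 0.03 for all genes. Ranges in which a median moved when a CD34-negative array was left out are given with it. The lists and their members were chosen with earlier results of these data known, so these shares and medians are a description. Some genes stand in several lists, such as Dgat2 in the sebaceous and fatty acid lists and Zfp36 in the glucocorticoid and immediate early lists. The lists are therefore not separate observations. Apart from Runx1, Tle4, Cxcl14, Tsc22d3 and Cpe, no member of any list passed the test, and values are then given without a call. In sorted cells measured in bulk, fewer cells of a type and less RNA per cell cannot be told apart.

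**Figure D4:**
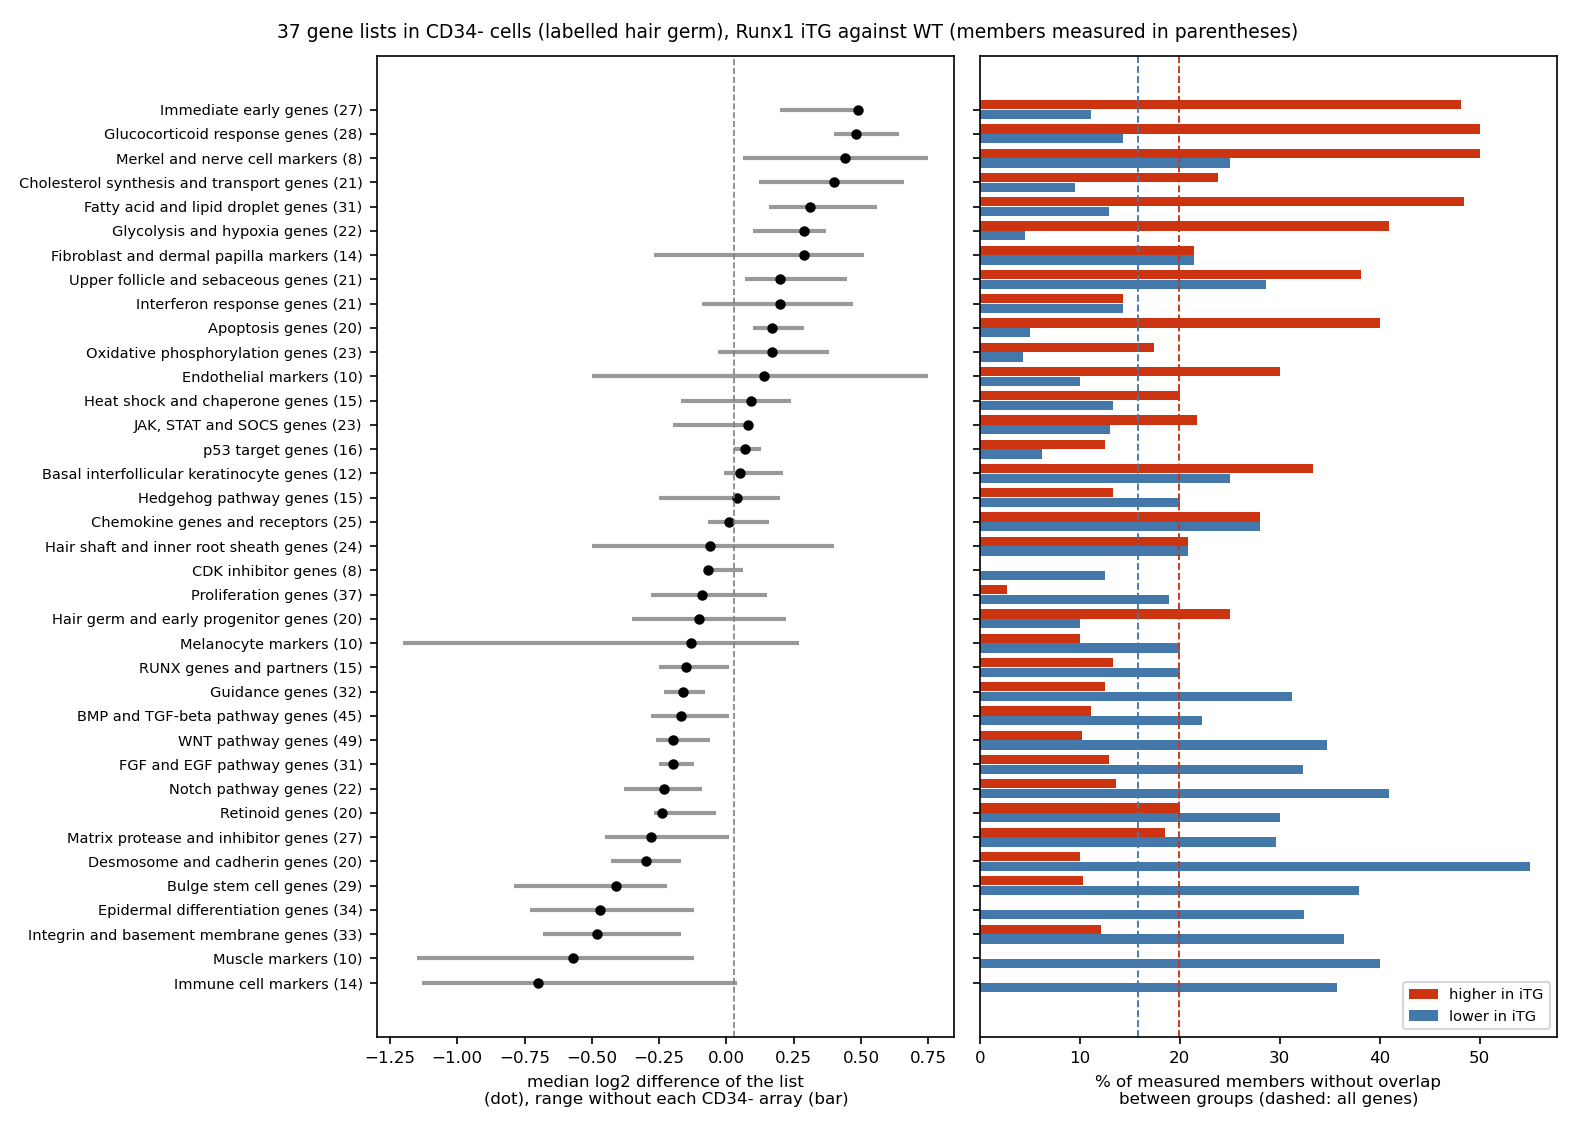
Median log2 difference of 37 gene lists in CD34-negative cells, Runx1 iTG minus WT (left, dots, with the range over leaving out each CD34-negative array as bars) and the percentage of measured members whose groups did not overlap (right, red higher and blue lower in Runx1 iTG); dashed lines are the values over all genes. Among the lists with 20 or more measured members, glucocorticoid response and fatty acid genes have the largest shares of higher members, 50% and 48.4%, and desmosome and cadherin genes the largest share of lower ones, 55%. The lists were chosen with earlier results of these data known.

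Of 15 measured RUNX genes and partners, 2 were higher and 3 lower without overlap. Beside Runx1 and Tle4, the corepressor gene Tle2 read 507 and 332 in WT and 148 and 213 in Runx1 iTG cells (-1.21 ± 0.41, adjusted p = 0.588). Tle6 gave -0.99 with overlapping groups. Hipk2, a kinase gene whose product binds RUNX1, read 2313 and 2877 in WT and 3135 and 3225 in Runx1 iTG cells (0.30, adjusted p = 0.897).

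Bulge stem cell genes had more lower than higher members. Of 29 measured members 11 were lower (37.9%) and 3 higher (10.3%), with a median of -0.41 (-0.79 to -0.22), and -0.09 in the bulge fraction itself. Nfatc1, a transcription factor gene that keeps bulge cells quiescent, read 1475 and 1165 in WT and 602 and 534 in Runx1 iTG cells (-1.21 ± 0.22, adjusted p = 0.151). Id4, a BMP-responsive inhibitor of bHLH factors, read 2165 and 1744 in WT and 668 and 897 in Runx1 iTG cells (-1.33 ± 0.25, adjusted p = 0.182). Tcf7l2, a WNT pathway transcription factor, read 1738 and 1827 in WT and 825 and 997 in Runx1 iTG cells (-0.97 ± 0.23). Postn, the matrix protein periostin, read 901 and 1145 in WT and 280 and 544 in Runx1 iTG cells (-1.38 ± 0.32), and both were at an adjusted p of 0.276.

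The summed signal of the bulge list was 60373 and 52182 in WT and 36229 and 49002 in Runx1 iTG cells, and Cd34 was below background on 3 of the 4 arrays and at 53.2 on WT replicate 2. Some genes that were lower in Runx1 iTG cells had higher signals in WT bulge than in WT CD34-negative cells, among them Egfl6, at 3387 and 2487 in WT bulge, and Maf, at 7965 and 8361. The part of admixed bulge cells in these differences was not tested.

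Hair germ and early progenitor genes showed no common direction, with 5 of 20 higher, 2 lower and a median of -0.10 (-0.35 to 0.22). Pdgfa, a growth factor gene, read 2265 and 1471 in WT and 3714 and 3514 in Runx1 iTG cells (0.98 ± 0.29, adjusted p = 0.462). Vdr, the vitamin D receptor gene, read 5242 and 4323 in WT and 2641 and 3377 in Runx1 iTG cells (-0.67 ± 0.22). Msx2, a homeobox gene of the hair matrix, was dim, at 45.4 and 109 in WT and 118 and 235 in Runx1 iTG cells (1.24).

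Upper follicle and sebaceous genes split. Of 21 measured, 8 were higher (38.1%) and 6 lower (28.6%), with a median of 0.20 (0.07 to 0.45). Pparg read 1070 and 2070 in WT and 4171 and 4079 in Runx1 iTG cells (1.47 ± 0.59, adjusted p = 0.671), and Dgat2, which makes triglycerides, read 2645 and 3367 in WT and 5553 and 4803 in Runx1 iTG cells (0.79 ± 0.24). Elovl4, which elongates very long fatty acids, read 1610 in WT replicate 1 and 1607 in WT replicate 2, and 2626 and 2496 in Runx1 iTG cells (0.67). Lgr6 was lower, as given above. Gata6, a transcription factor gene of the sebaceous duct, read 4423 and 872 in WT and 365 and 596 in Runx1 iTG cells (-2.07 ± 0.79), its WT replicate 1 standing far above the other 3 arrays. The summed signal of the list was 106472 and 103794 in WT and 105107 and 106135 in Runx1 iTG cells, with overlap.

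None of 34 measured epidermal differentiation genes was higher without overlap and 11 were lower (32.4%), with a median of -0.47 (-0.73 to -0.12). Ivl, or involucrin, a protein of the cornified envelope, read 826 and 688 in WT and 292 and 392 in Runx1 iTG cells (-1.16 ± 0.31, adjusted p = 0.416). Sprr1a, of the same envelope, read 3474 and 1353 in WT and 1003 and 880 in Runx1 iTG cells (-1.21 ± 0.43). Grhl3, a transcription factor gene of the epidermal barrier, read 794 and 332 in WT and 194 and 239 in Runx1 iTG cells (-1.25 ± 0.47), so that WT replicate 1 was the highest array in both. Krtdap and Sbsn, genes of secreted proteins of the suprabasal layers, gave -0.66 and -0.52.

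Basal interfollicular genes had 4 of 12 higher and 3 lower, with a median of 0.05. The members that were higher include the metallothionein gene Mt2, at 6607 and 7326 in WT and 11627 and 14020 in Runx1 iTG cells (0.88 ± 0.29, adjusted p = 0.562), and Mt1 (0.65). Krt5, the basal keratin, read 19068 and 17645 in WT and 12728 and 15168 in Runx1 iTG cells (-0.40). Hair shaft and inner root sheath genes had 5 of 24 higher and 5 lower. Among them Krt32, a hair keratin of the cuticle, read 712 and 472 in WT and 141 and 202 in Runx1 iTG cells (-1.78 ± 0.36, adjusted p = 0.21).

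Adhesion genes also had more lower than higher members. Of 20 measured desmosome and cadherin genes 11 were lower (55%) and 2 higher (10%), with a median of -0.30 (-0.43 to -0.17), and Dsc2 at 3.68 stood alone at the upper end. Dsg1a, a desmoglein gene of differentiating keratinocytes, read 1629 and 1419 in WT and 601 and 966 in Runx1 iTG cells (-1.00 ± 0.32, adjusted p = 0.557). Jup, or plakoglobin, read 6357 and 5214 in WT and 3961 and 4078 in Runx1 iTG cells (-0.52 ± 0.20). Dsp, or desmoplakin, read 19338 and 10417 in WT and 8154 and 10344 in Runx1 iTG cells (-0.63), so that only WT replicate 1 stood clear of the rest.

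Integrin and basement membrane genes were lower in 12 of 33 members (36.4%) and higher in 4 (12.1%), with a median of -0.48 (-0.68 to -0.17). Itga2, a collagen receptor subunit, read 269 and 141 in WT and 34.2 and 12.1 in Runx1 iTG cells (-3.26 ± 0.58, adjusted p = 0.139). Itga3 and Lama3, a receptor and a ligand chain of the epidermal basement membrane, read 1799 and 898 in WT and 592 and 598 in Runx1 iTG cells for Itga3 (-1.10). For Lama3 the signals were 2181 and 1818 in WT and 1123 and 1069 in Runx1 iTG cells (-0.86). Lamb1, another laminin chain, went the other way, from 501 and 1124 to 2295 and 2480 (1.67 ± 0.35, adjusted p = 0.22).

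Matrix proteases and their inhibitors were higher in 5 of 27 and lower in 8 (29.6%). Beside Cpe and Plau, Mmp11 read 334 and 84.8 in WT and 10.6 and 57.2 in Runx1 iTG cells (-2.77 ± 0.84, adjusted p = 0.493).

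Among WNT pathway genes 17 of 49 were lower (34.7%) and 5 higher (10.2%), with a median of -0.20 (-0.26 to -0.06). The ligand gene Wnt4 read 2264 and 1952 in WT and 732 and 752 in Runx1 iTG cells (-1.50 ± 0.31, adjusted p = 0.217). A second ligand gene, Wnt10a, read 858 and 544 in WT and 319.8 and 316 in Runx1 iTG cells (-1.11 ± 0.46). The receptor gene Fzd1 was brighter, at 1076 and 1218 in WT and 2008 and 1580.3 in Runx1 iTG cells (0.64). Notum, which inactivates WNT proteins, was below background on both WT arrays and read 53.4 and 62.6 on the Runx1 iTG arrays, at least 1.86-fold higher (adjusted p = 0.439).

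Notch pathway genes were lower in 9 of 22 members (40.9%) and higher in 3 (13.6%), with a median of -0.23 (-0.38 to -0.09). Notch signalling passes between touching cells, from ligands such as Jag1 to Notch receptors, with fringe enzymes such as Lfng tuning the receptor. The ligand gene Jag1 read 3188 and 3006 in WT and 1137 and 1666 in Runx1 iTG cells (-1.17 ± 0.28, adjusted p = 0.289). Among receptors, Notch1 read 3504 and 3500.0 in WT and 2128 and 2220.4 in Runx1 iTG cells (-0.69 ± 0.23), and Notch3 432 and 369 in WT and 178 and 131 in Runx1 iTG cells (-1.39 ± 0.38). Lfng read 1868 and 2221 in WT and 1147 and 757 in Runx1 iTG cells (-1.13 ± 0.26, adjusted p = 0.276). The bHLH gene Hes6, whose product counters Hes1, went the other way, from 169 and 147 to 464 and 474 (1.57 ± 0.32, adjusted p = 0.215). Jag1, Lfng, Notch1 and Notch3 were thus dimmer on each Runx1 iTG array than on either WT array, but members were named by smallest p. The ligand genes Jag2 and Dll1 gave 0.13 and 0.44, and the receptor gene Notch2 0.04, all with overlapping groups.

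In the BMP and TGF-beta pathways 10 of 45 genes were lower (22.2%) and 5 higher (11.1%), with a median of -0.17 (-0.28 to 0.01). Tgfbi, a matrix protein induced by TGF-beta, read 6207 and 5563 in WT and 1154 and 2435 in Runx1 iTG cells (-1.81 ± 0.31, adjusted p = 0.124). Tgfbr2, a TGF-beta receptor gene, read 1949 and 2245 in WT and 3697 and 3318 in Runx1 iTG cells (0.74), but the mean of its 3 probe sets gave -0.16. Smad6, an inhibitor of BMP signals, read 113 and 197 in WT and 582 and 244 in Runx1 iTG cells (1.34).

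FGF and EGF pathway genes were lower in 10 of 31 (32.3%) and higher in 4 (12.9%). The higher ones include the receptor gene Fgfr2 (0.34) and 3 genes of feedback inhibitors. Other inhibitor genes of the list, Spry2 and Spry4, gave 0.12 and -0.34 with overlapping groups. Spry1, a Sprouty inhibitor of receptor kinases, read 178 and 139 in WT and 366 and 574 in Runx1 iTG cells (1.55 ± 0.39, adjusted p = 0.375). Dusp6, an ERK phosphatase gene, read 197 and 299 in WT and 471 and 1309 in Runx1 iTG cells (1.69 ± 0.53). Errfi1, an inhibitor of the EGF receptor, read 1131 and 840.1 in WT and 1283 and 2467 in Runx1 iTG cells (0.87). The receptor genes Erbb3 and Fgfr3 gave -0.65 and -0.60. In Spry1, Dusp6 and Errfi1 the highest array was Runx1 iTG replicate 2.

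Chemokine genes and receptors were higher in 7 of 25 (28%) and lower in 7 (28%), with a median of 0.01. Apart from Cxcl14, the receptor gene Cxcr4 read 152 and 218 in WT and 597 and 675 in Runx1 iTG cells (1.80 ± 0.39, adjusted p = 0.231). The ligand gene Cx3cl1 read 248 and 109 in WT and 879 and 543 in Runx1 iTG cells (2.07 ± 0.57). Ccl20 and Ccl7 were below background on both Runx1 iTG arrays and dim in WT, at 78 and 58.6 for Ccl20 and 88.6 and 33.3 for Ccl7, which makes them at least 2.17-fold and at least 1.74-fold lower.

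Immune cell markers were lower in 5 of 14 members (35.7%) and higher in 0, with a median of -0.70 (-1.13 to 0.04). Their summed signal was 2722 and 2034 in WT and 1199 and 1738 in Runx1 iTG cells. Thy1 alone gave 1429 and 775 of it in WT and 518 and 605 in Runx1 iTG cells. The defining markers Ptprc, Cd207 and Lyz2 were below background on all 4 arrays. The part of immune cells in the chemokine values was not tested.

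Glucocorticoid response genes were higher in 14 of 28 members (50%) and lower in 4 (14.3%), with a median of 0.48 (0.40 to 0.64) and 0.53 in bulge. Beside Tsc22d3, the called gene of the list, Nfkbia, an inhibitor of NF-kB, read 3256 and 2882 in WT and 4715 and 5806 in Runx1 iTG cells (0.77 ± 0.21, adjusted p = 0.416). Zfp36, an RNA-binding protein that destabilises cytokine mRNAs, read 3719 and 3261 in WT and 7421 and 5905 in Runx1 iTG cells (0.93 ± 0.25). Bcl6, a transcriptional repressor gene, read 4489 and 2723 in WT and 7098 and 5947 in Runx1 iTG cells (0.89). Sgk1, a kinase gene induced by glucocorticoids in many tissues, was lower, at 4789 and 2648 in WT and 1146 and 2073 in Runx1 iTG cells (-1.21 ± 0.34).

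Immediate early genes are switched on fast by growth factors, and also when tissue is handled. They were higher in 13 of 27 (48.1%) and lower in 3 (11.1%), with a median of 0.49 (0.20 to 0.50). Fos read 2408 and 2967 in WT and 9402 and 6759 in Runx1 iTG cells (1.58 ± 0.34, adjusted p = 0.241). Egr1 read 5419 and 5990.0 in WT and 9814 and 11736 in Runx1 iTG cells (0.91 ± 0.26). Ier2 read 411 and 461 in WT and 1045 and 1352 in Runx1 iTG cells (1.45 ± 0.32), and Fosb 801 and 1102 in WT and 2107 and 1729 in Runx1 iTG cells (1.02). In these 4 genes both Runx1 iTG arrays lay above both WT arrays.

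**Figure D5:**
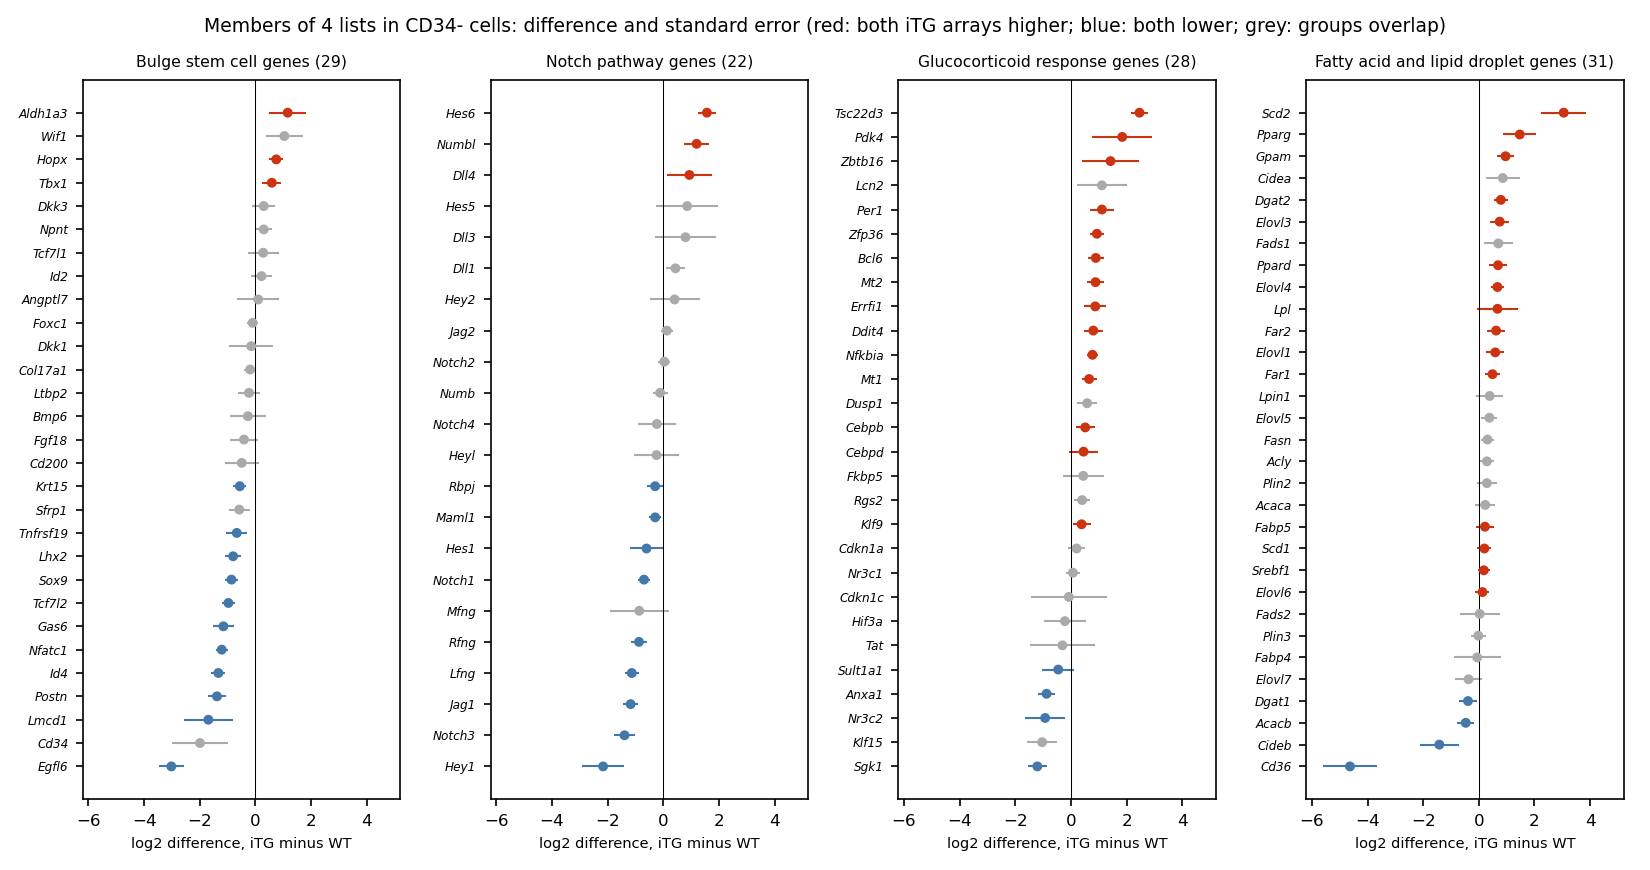
Log2 difference with standard error, Runx1 iTG minus WT in CD34-negative cells, for every measured member of 4 lists: bulge stem cell, Notch pathway, glucocorticoid response, and fatty acid and lipid droplet genes; red members were higher and blue members lower on both Runx1 iTG arrays than on either WT array, and grey ones overlapped. Bulge genes have 11 blue and 3 red members, glucocorticoid response genes 14 red and 4 blue.

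Fatty acid and lipid droplet genes had more higher than lower members. Of 31 members 15 were higher (48.4%) and 4 lower (12.9%), with a median of 0.31 (0.16 to 0.56) and 0.32 in bulge. Gpam, which starts triglyceride synthesis, read 4834 and 7675 in WT and 10725 and 13045 in Runx1 iTG cells (0.96 ± 0.30, adjusted p = 0.513). Scd2, a fatty acid desaturase gene, read 257 and 250 in WT and 4895 and 898 in Runx1 iTG cells (3.05 ± 0.80), the Runx1 iTG arrays lying far apart. Cd36, a fatty acid transporter gene, was the lowest of the list, at 482 and 698 in WT and 8.04 and 68.2 in Runx1 iTG cells (-4.63 ± 0.98, adjusted p = 0.22).

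Cholesterol synthesis and transport genes were higher in 5 of 21 (23.8%), near the 19.9% of all genes, and lower in 2 (9.52%). Their median was 0.40 (0.12 to 0.66), and -0.33 in bulge. Sc5d and Msmo1, enzymes of late sterol synthesis, were brighter. Sc5d read 222 and 233 in WT and 1599 and 667 in Runx1 iTG cells (2.18 ± 0.43, adjusted p = 0.21). Msmo1 read 1567 and 1541 in WT and 6015 and 4487 in Runx1 iTG cells (1.74 ± 0.37, adjusted p = 0.22). The sterol exporter gene Abcg1 read 627 and 329 in WT and 1227 and 1400.2 in Runx1 iTG cells (1.53 ± 0.42).

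Glycolysis and hypoxia genes were higher in 9 of 22 (40.9%) and lower in 1 (4.55%), with a median of 0.29 (0.10 to 0.37). Adm, the gene of the peptide hormone adrenomedullin, read 101 and 80.3 in WT and 435 and 837 in Runx1 iTG cells (2.75 ± 0.61, adjusted p = 0.254). The stress-induced mTOR inhibitor gene Ddit4 read 6274 and 3984 in WT and 8267 and 9182 in Runx1 iTG cells (0.80). Pgk1, a glycolytic enzyme gene, read 4402 and 5781 in WT and 8771 and 6964 in Runx1 iTG cells (0.63). Pfkfb3, a regulator of glycolysis, went from 35.4 and 36.8 to 149 and 92.1 (1.70).

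Proliferation genes were higher in 1 of 37 (2.7%) and lower in 7 (18.9%), with a median of -0.09 (-0.28 to 0.15). Ccnd1, or cyclin D1, which drives entry into the cell cycle, read 2039 and 1155 in WT and 908 and 1016 in Runx1 iTG cells (-0.68 ± 0.33, adjusted p = 0.783). Its partner kinase gene Cdk6 read 2337 and 2464 in WT and 3413 and 3337 in Runx1 iTG cells (0.49), and was the 1 member higher without overlap.

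Of 8 CDK inhibitor genes, 1 was lower without overlap, Cdkn2d, at -0.28 (adjusted p = 0.974). Cdkn1a, or p21, read 5510 and 4478 in WT and 6699 and 4829 in Runx1 iTG cells, with overlap (0.20 ± 0.30, adjusted p = 0.975). Cdkn1b gave -0.27 with overlapping groups.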

How the data were processed

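The series holds 8 arrays of the Affymetrix Mouse Genome 430 2.0 type, 1 per sample. Per the labels, 5 ng of RNA was amplified and biotin-labelled with NuGEN kits, a step that can make dim transcripts noisier. The authors deposited linear intensity values of 45101 probe sets, with a trimmed mean of 500 on every array. Their summarisation program is not given in the sources used.

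From these intensities 64 control probe sets were dropped, and a factor per array gave all arrays one 75th percentile. A floor of 2.42, the smallest 5th percentile among the arrays, was set before log2 was taken. Of the probe sets, 34945 had 1 gene symbol, 932 several and 9160 none, and the brightest probe set over all arrays stood for each of 18193 genes. Limma 3.58.1 in R 4.3.3 fitted one mean per group to all 8 arrays (eBayes with trend), and p-values were adjusted by Benjamini-Hochberg. The samples are labelled biological replicates, so p-values measure the spread between samples so labelled. The median SE of a difference was 0.515 (log2). In 20 simulated sets of this comparison over 18193 genes, with 200 changed, the fit recovered 16% of 2-fold, 78.3% of 4-fold and 94% of 8-fold changes, and 6.9% of its calls were false. The changed genes were drawn only from the brighter part of all genes, with normal noise of the variances that limma had fitted. These percentages therefore do not cover dim genes or noise of another form.

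The genes named are Runx1, Cxcl14, Tle4, the sort genes, every gene called and 12 genes per direction of smallest p. The 12 were taken among genes without overlap between groups and with a brighter mean at or above the median signal. Genes with clone names, Xist and Y-linked genes were left out there. Also named are up to 5 members of each list by p and, under the conditions of the 12, 4 genes per direction for the interaction. Members and the 37 lists (779 of 825 genes measured) were chosen with earlier results of these data known. A fold against a group below background on both arrays is the brighter mean over the background limit. Alternatives were quantile normalization, the deposited scaling, an offset of 50, a filter on dim genes, the mean over a gene's probe sets, no intensity trend, the CD34-negative arrays alone, the replicate number as a block, day 20 alone, each array left out in turn and, added after seeing the data, every probe set fitted on its own.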

Additional observations from a re-analysis of the deposited data

Results flagged for a closer look

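For 13 named genes the Runx1 iTG arrays lay to one side of the WT arrays in CD34-negative cells and to the other side in bulge. Of all 18193 genes, 466 were higher in CD34-negative cells and lower in bulge, and 371 the reverse. Some of the 13 were named for their interaction p, so their number is no result by itself. The test of the difference itself, limma's interaction term, gave an adjusted p of 0.91 to 1 for the 13 genes. None of them is therefore shown to differ between the fractions. In groups of 2 no array was tested as standing apart.

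Rassf6, a member of the RASSF family of tumour suppressor genes, gave fitted differences of 0.93 in CD34-negative cells and -4.78 in bulge, the second of which is not exact because both Runx1 iTG bulge arrays were below background at 3.7 and 2.42. Nrp1, a receptor for semaphorins and VEGF, gave 1.89 and -2.14. Dusp26, a phosphatase gene, gave -2.43 and 2.19, with both WT bulge arrays below background at 15.8 and 20.9. Alox12b, a lipoxygenase gene of the skin barrier, gave -3.29 and 0.96, but both Runx1 iTG CD34-negative arrays were below background at 21.4 and 8.64, so that only a difference of at least 4.26-fold can be stated. Maf gave -1.97 and 0.08, the second of which is smaller than its SE.

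The lipid genes Dgat2 and Abcg1 gave 0.79 and 1.53 in CD34-negative cells and -0.53 and -0.66 in bulge. Sgk1 gave -1.21 and 0.50. The extracellular matrix genes Adamts1 and Timp2 gave -0.79 and -0.53 in CD34-negative cells and 1.17 and 0.18 in bulge. Cdk6 gave 0.49 and -0.55, Hipk2 0.30 and -0.15, and the dim keratin gene Krt75 1.25 and -0.78, with both WT CD34-negative arrays below background.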

How the results depend on the processing

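The number of genes called, 5 in the comparison as reported, moved with most choices. It was 2 under quantile normalization, 12 with an offset of 50, 12 without dim genes, 1 with the mean over a gene's probe sets (Cxcl14), 0 without the intensity trend (1188 at an unadjusted p under 0.05 in limma), 1 from the CD34-negative arrays alone (Runx1) and 0 from day 20 alone (1379 unadjusted). On day 20 alone each Runx1 iTG group holds 1 array, which is assumed to vary like the WT groups. It was 4 with the deposited scaling. With every probe set fitted on its own 4 probe sets were called, of 2 genes, Runx1 and Cxcl14. Leaving out 1 array gave 1 (without WT CD34-negative replicate 1) to 8 (without WT CD34-negative replicate 2), and 2 without any bulge array or without Runx1 iTG CD34-negative replicate 1. In each of these fits the array left alone in its group is assumed to vary like the others. Fewer arrays, genes or probe sets enter some of these fits; otherwise the cause was not tested. With the replicate number as a block 6 genes were called, Lgr6 in addition, and 0 in the interaction; the number goes with sex, and deviations of same-numbered WT and Runx1 iTG CD34-negative arrays correlated at -0.0271, so no pairing was assumed. The interaction gave 0 calls in all other fits but 3 without WT CD34-negative replicate 2 (Ccpg1, Cpne8 and Pigb).

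Over 17 settings Runx1 passed in 14, Cxcl14 in 13, Tle4 in 4, Tsc22d3 in 4 and Cpe in 3. Of 2431 values of 143 named genes, 2356 kept direction and side of the threshold, 46 no longer passed, 17 newly passed and 12 turned. With the mean of probe sets Runx1 turned to -0.29, Cdk2 to 0.34 and Tgfbr2 to -0.16. On day 20 alone Cdkn2b turned to 0.01 and Cdkn2a to -0.20. With single arrays left out, values ran from -2.12 to 0.33 for Cdkn2b, -0.20 to 0.45 for Cdkn2a, -0.04 to 0.43 for Cdkn1a, -2.49 to 0.01 for Cd3e and -1.57 to 0.08 for Fcer1g. Of 442 list medians, 426 moved by less than the spread between arrays and 16 by more. Signal over background also limits the comparison: 68.95% to 73.73% of probe sets on the CD34-negative arrays lay above background.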

Other observations

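The counts of members without overlap in this section stand beside 19.9% higher and 15.8% lower of all genes. The limits given for the lists above hold here too. Guidance genes encode semaphorins, ephrins and their receptors. In Runx1 iTG CD34-negative cells 4 of 32 members were higher (12.5%) and 10 lower (31.2%), with a median of -0.16. Plxna2, a semaphorin receptor gene, read 1238 and 1644 in WT and 285 and 701 in Runx1 iTG cells (-1.67 ± 0.51, adjusted p = 0.493). Sema3d read 432 and 216 in WT and 67.4 and 153 in Runx1 iTG cells (-1.59), and the ephrin gene Efna1 1520.3 and 1297 in WT and 804 and 909 in Runx1 iTG cells (-0.72).

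Retinoid genes were higher in 4 of 20 (20%) and lower in 6 (30%). Crabp2, which carries retinoic acid to the nucleus, read 1073 and 305 in WT and 128 and 293 in Runx1 iTG cells (-1.56), and Rxra, a nuclear receptor gene, 3526 and 3533 in WT and 2478 and 2299 in Runx1 iTG cells (-0.56 ± 0.20, adjusted p = 0.61). JAK, STAT and SOCS genes were higher in 5 of 23 (21.7%) and lower in 3 (13%), near the shares of all genes. Among them Stat5a read 1377 and 2390.1 in WT and 2659 and 3196 in Runx1 iTG cells (0.68), and the feedback inhibitor gene Socs3 510 and 450.3 in WT and 665 and 926 in Runx1 iTG cells (0.71). Jak3 was also higher (1.53), while Lifr and Socs2 gave -1.24 and -1.91 with overlapping groups.

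Apoptosis genes were higher in 8 of 20 (40%) and lower in 1 (5%), beside 19.9% and 15.8% of all genes. The p53 target genes were higher in 2 of 16 (12.5%) and lower in 1 (6.25%). Oxidative phosphorylation genes were higher in 4 of 23 (17.4%) and lower in 1 (4.35%), and heat shock genes higher in 3 of 15 (20%) and lower in 2 (13.3%). Interferon response genes were higher in 3 of 21 and lower in 3 (14.3% each), and Hedgehog pathway genes higher in 2 of 15 (13.3%) and lower in 3 (20%). Summed melanocyte markers read 1133 and 1027 in WT and 503 and 1250 in Runx1 iTG cells, with Tyr, Tyrp1 and Mlana below background on all 4 arrays. Most of each sum came from Mitf, at 798 and 707 in WT and 374 and 868 in Runx1 iTG cells. Mitf was brighter in WT bulge, at 1886 and 3164. Fibroblast and dermal papilla markers summed to 3858 and 2105 in WT and 1968 and 3992 in Runx1 iTG cells, and endothelial markers to 265 and 199.6 in WT and 228 and 351 in Runx1 iTG cells. Merkel and nerve cell markers summed to 562 and 633 in WT and 966 and 874 in Runx1 iTG cells, with Krt20, Atoh1 and Sox2 below background. Krt8 alone went from 15.8 and 180 in WT to 384 and 390 in Runx1 iTG cells. Muscle markers summed to 557 and 609 in WT and 302 and 472 in Runx1 iTG cells, with Acta1, Actc1, Des and Tnnt3 below background.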
